A study of Homo sapiens with 8 samples.

Results

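The 10 genes described here encode negative feedback regulators of mitogen-activated protein (MAP) kinase signalling: the dual-specificity phosphatases DUSP1, DUSP4, DUSP5, DUSP6 and DUSP10, the Sprouty proteins SPRY1, SPRY2 and SPRY4, and the Sprouty-related proteins SPRED1 and SPRED2. They were chosen by gene symbol, and all 10 were found among the 58735 genes of the expression table. HepG2, an established line of human hepatocellular carcinoma grown with fetal bovine serum, was infected with a control lentivirus (4 libraries, wild-type genotype) or with a DNMT3A-overexpressing lentivirus (4 libraries). Library names in both groups carry the label pLV_EGFP. DNMT3A sets new methyl groups on DNA. Sources used here do not give the promoter that drives the transgene or the time after infection. They also do not say that libraries were made from separate infections or cultures, so each p-value covers the spread of these libraries alone, which may be technical. The labels name no kinase inhibitor or growth factor, and protein and phosphorylation were not measured.

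When a growth factor binds its receptor, RAS activates the RAF kinases, which activate MEK and then the kinase ERK. Active ERK raises transcription of its own brakes. Nuclear and cytoplasmic dual-specificity phosphatases remove phosphate from the activated MAP kinases: DUSP6 is a cytoplasmic phosphatase selective for ERK, DUSP5 a nuclear one selective for ERK, DUSP4 a nuclear one that acts on ERK, JNK and p38, DUSP1 a nuclear immediate early phosphatase that acts on p38, JNK and ERK, and DUSP10 one that prefers JNK and p38. Sprouty proteins act upstream, between receptor and RAF, and SPRED proteins recruit neurofibromin, the product of NF1, to switch RAS off. In hepatocellular carcinoma these genes are known as readouts and restraints of receptor signalling.

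Promoter windows are shown because DNMT3A methylates cytosine in CpG dinucleotides. They are those of DUSP6 and SPRY4, and of SPRY2, whose transcript did not pass the test. On the scale of log2(FPKM + 1) DUSP6 and SPRY4 differed most between groups among the members tested. By the ratio of mean FPKM the low member DUSP10 (1.94) exceeded SPRY4 (1.88). Capitals mark each CpG. The RefSeq windows (GRCh38.p14, 250 bases before to 50 after the RefSeq start) lie on the minus strand at chr12:89352452-89352751, chr5:142324198-142324497 and chr13:80341077-80341376, and are written 5′ to 3′ along the gene. These RefSeq starts differ from the starts of the genes whose FPKM is given below. The SPRY2 window lies upstream of that gene's interval, and the DUSP6 and SPRY4 windows lie inside theirs.
DUSP6: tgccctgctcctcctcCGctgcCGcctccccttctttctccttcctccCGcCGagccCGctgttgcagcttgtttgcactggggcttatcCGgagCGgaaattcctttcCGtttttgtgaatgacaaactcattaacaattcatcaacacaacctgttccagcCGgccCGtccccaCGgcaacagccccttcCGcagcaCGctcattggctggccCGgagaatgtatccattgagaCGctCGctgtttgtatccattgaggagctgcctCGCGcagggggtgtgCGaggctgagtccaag
SPRY4: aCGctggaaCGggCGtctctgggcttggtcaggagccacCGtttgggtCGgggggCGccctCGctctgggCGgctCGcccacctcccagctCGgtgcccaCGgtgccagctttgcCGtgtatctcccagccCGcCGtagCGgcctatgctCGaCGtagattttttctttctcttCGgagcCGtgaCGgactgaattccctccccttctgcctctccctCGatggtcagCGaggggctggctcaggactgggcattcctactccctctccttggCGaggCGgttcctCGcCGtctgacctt
SPRY2: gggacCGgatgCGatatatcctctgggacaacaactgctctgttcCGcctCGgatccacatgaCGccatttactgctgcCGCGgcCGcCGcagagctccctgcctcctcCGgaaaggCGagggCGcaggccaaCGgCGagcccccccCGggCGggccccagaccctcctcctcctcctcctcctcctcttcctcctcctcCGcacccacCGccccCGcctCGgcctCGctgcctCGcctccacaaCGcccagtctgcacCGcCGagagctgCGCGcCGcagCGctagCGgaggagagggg
DUSP6 held 19 CpG in this window, SPRY4 26 and SPRY2 30, against a median of 14 over the 35116 windows in the table. Observed over expected CpG was 0.77, 0.83 and 0.85, against a median of 0.58. All 3 windows shown were richer in CpG than the median window. SPRY2 has 3 windows in the table, of which the richest is shown, and the other two hold 15 and 6 CpG at 0.53 and 0.42 observed over expected, below the median ratio. DNA methylation was not measured in these libraries.

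The DUSP1 window is shown for its cyclic AMP response element half-sites (TGACG on either strand), known from studies of this promoter. Capitals mark the half-sites, and the window lies on the minus strand at chr5:172771146-172771445.
DUSP1: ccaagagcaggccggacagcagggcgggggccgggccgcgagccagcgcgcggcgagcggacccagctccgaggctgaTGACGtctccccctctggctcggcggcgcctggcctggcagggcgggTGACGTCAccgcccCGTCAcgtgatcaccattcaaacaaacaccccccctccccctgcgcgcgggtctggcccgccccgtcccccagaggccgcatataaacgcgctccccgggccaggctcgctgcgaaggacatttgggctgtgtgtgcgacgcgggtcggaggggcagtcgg
It held 4 matches in 3 stretches, since the palindromic stretch counts on each strand, and 24.6% of all windows held at least 1 match. The SPRY4 window held 1 match, as did the SPRY2 window shown, the second of 2 DUSP10 windows and the first of 2 SPRED2 windows. The DUSP6 window and the members' other windows held 0. CCGGAA, the core of sites for ETS factors, was found in 17.2% of all windows. It occurred 1 time in the SPRY2 window shown and 1 time in the second of the 2 SPRY1 windows, and 0 times in those of DUSP1, DUSP6 and SPRY4. TGANTCA, the AP-1 site, stood in 7.71% of all windows and among the members' windows only in the second of 2 for SPRED2, with 2 matches. The serum response element by its consensus stood in 1.29% of all windows and in 0 of the 13 windows of members. In all 8 members had a window in the table, and DUSP4 and DUSP5 had none.

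Libraries held 15911019 to 17677093 reads each, recovered from the FPKM values. FPKM is a fragment count scaled by gene length and by a factor for each library, so levels can be set side by side between genes. DNMT3A itself stood at 3.62, 3.89, 3.45 and 3.64 FPKM in control libraries 1 to 4 and at 9.75, 10.2, 8.51 and 7.26 FPKM in DNMT3A libraries 1 to 4, counting transgene and endogenous transcripts together. Of 9 hepatocyte markers 9 had a mean of at least 1 FPKM, with a summed level of 9623 to 10335 FPKM in the controls and 9121 to 11758 FPKM in the DNMT3A libraries. Of 6 blood markers and 4 endothelial markers 0 reached 1 FPKM, with PTPRC, CD3E, HBB and KDR listed at 0. Of 7 fibroblast and stellate markers 1 reached it, with LUM listed at 0 and a summed level of 8.18 to 10.1 FPKM in the controls and 6.20 to 10.5 FPKM in the DNMT3A libraries. In bulk RNA more cells expressing a gene and more RNA per cell cannot be told apart.

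Of the 8 members tested, 5 rose and 0 fell in the DNMT3A libraries: DUSP1, DUSP6, DUSP10, SPRY1 and SPRY4. DUSP10 passed the filter on low values only through the DNMT3A libraries, where it was high, so its call is a description. Of the 7 members with both group means past the filter 4 rose. SPRY2, SPRED1 and SPRED2 did not pass the test. DUSP5 and DUSP4 had a mean under 1 FPKM and were not tested. Genes with a mean of at least 1 FPKM were compared with limma on log2(FPKM + 1), Benjamini-Hochberg adjusted over 11620 genes with a threshold of 0.05. Among all tested genes 9.93% rose and 10.6% fell by this rule, or 1154 and 1235 genes, and after rescaling to TPM 1716 rose and 716 fell. The median log2 fold change was 0.55 over those 7 members and -0.01 over all tested genes, on a scale that understates the change of low genes. These members were listed with earlier results of these libraries known, so their count is a description.

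**Figure D1:**
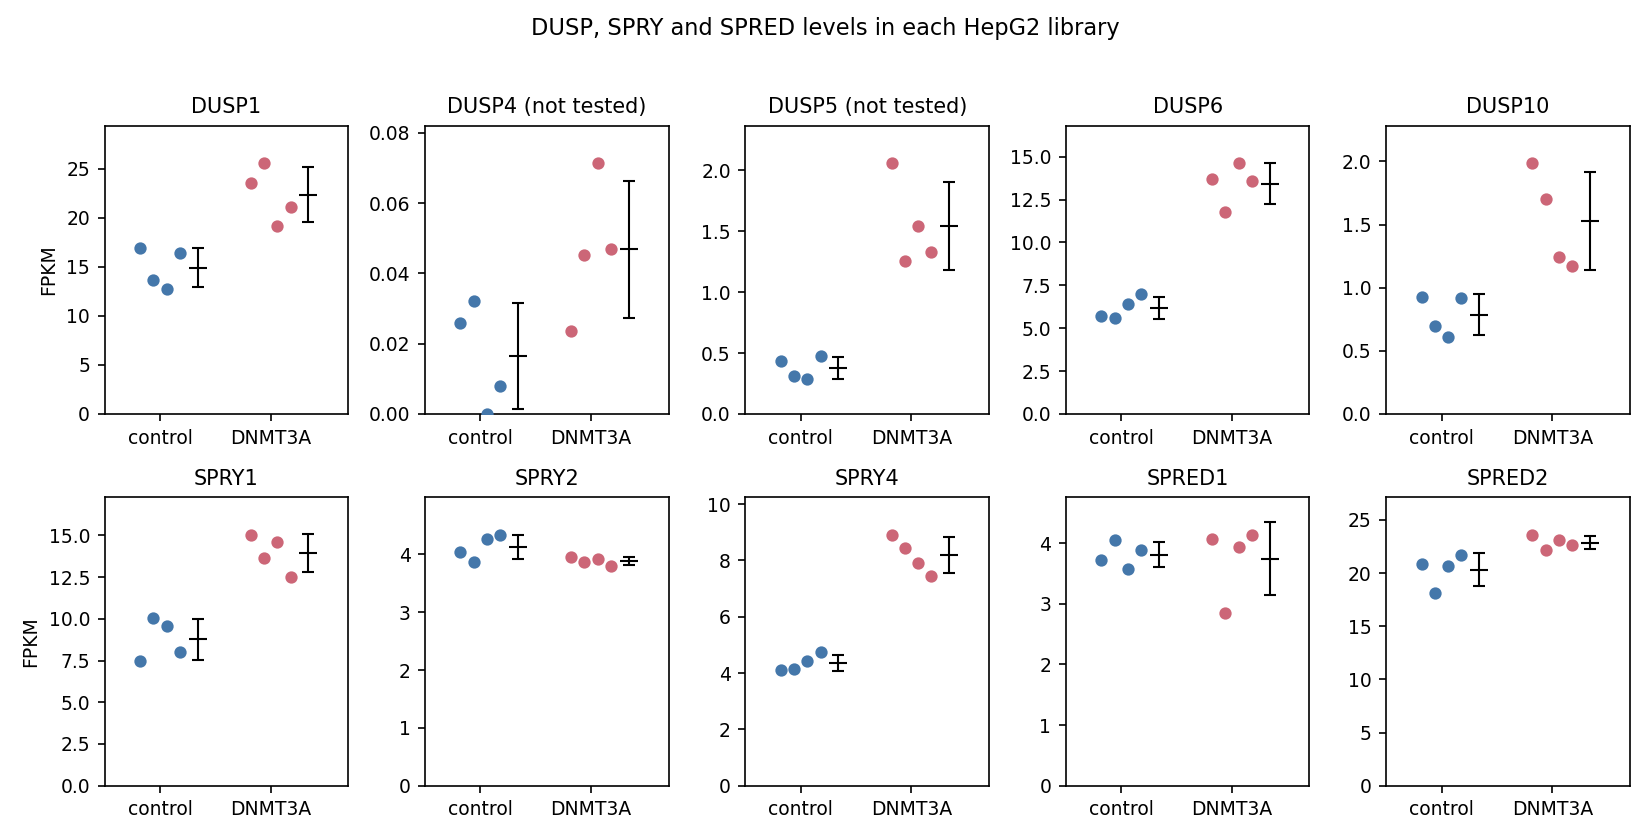
FPKM of each of the 10 members (vertical axes, each from 0) in the 4 control (blue) and 4 DNMT3A (red) libraries, drawn left to right as libraries 1 to 4, with the group mean and SD in black. For DUSP1, DUSP5, DUSP6, DUSP10, SPRY1, SPRY4 and SPRED2 the groups do not overlap, and DUSP4 stays under 0.08 FPKM.

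DUSP6, the cytoplasmic ERK phosphatase, changed most among the tested members. Its level (ENSG00000139318, hg38 chromosome 12, 89347232 to 89353271, minus strand) was 5.69, 5.59, 6.44 and 6.98 FPKM in control libraries 1 to 4 and 13.7, 11.8, 14.6 and 13.6 FPKM in DNMT3A libraries 1 to 4. Every DNMT3A library lay above every control library, with means of 6.18 ± 0.654 and 13.4 ± 1.18 FPKM (SD, n = 4), a 2.17-fold difference in mean FPKM. The log2 fold change was 1.01 with an SE of 0.08 (95% interval 0.82 to 1.19; limma adjusted p = 9.62e-05). An exact permutation test, two-sided and unadjusted over 10 members, gave p = 0.0286, the smallest value possible with 70 assignments. It rested on 420 to 1177 reads per library. An antisense gene, AC024909.2, overlaps DUSP6 with 28 reads in the controls and 82 in the DNMT3A libraries, and the preparation names no step that marks strand, so reads of the pair cannot be told apart.

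DUSP1, the immediate early phosphatase, was the most abundant of the 5 DUSP members. Its level (ENSG00000120129, hg38 chromosome 5, 172768090 to 172771195, minus strand) was 16.9, 13.6, 12.8 and 16.4 FPKM in the controls and 23.6, 25.6, 19.2 and 21.2 FPKM in the DNMT3A libraries. The lowest DNMT3A library, the third, stood above the highest control, the first. Means were 14.9 ± 2.03 and 22.4 ± 2.80 FPKM (SD, n = 4), with a log2 fold change of 0.55 and an SE of 0.11 (limma adjusted p = 0.00763).

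DUSP10, the JNK and p38 phosphatase, was low in both groups. Its level (ENSG00000143507, hg38 chromosome 1, 221701424 to 221742176, minus strand) was 0.926, 0.698, 0.607 and 0.916 FPKM in the controls and 1.99, 1.71, 1.24 and 1.17 FPKM in the DNMT3A libraries, from 28 to 101 reads per library. The groups did not overlap, and DNMT3A libraries 1 and 2 stood apart above libraries 3 and 4. Its control mean of 0.787 FPKM lay under the filter, and the DNMT3A libraries (mean 1.53 FPKM) alone lifted it past. As a description, the log2 fold change was 0.49 with an SE of 0.12 (limma adjusted p = 0.0209). Its size depended on the scale, at 0.86 with a pseudocount of 0.1, 0.78 as TPM and 0.96 with voom. This call was lost without control library 2 (limma adjusted p = 0.0576), without control library 3 (0.0608), without DNMT3A library 1 (0.0524) and without the FPKM filter (0.0778).

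DUSP5, the nuclear ERK phosphatase, fell just short of the filter with a mean under 1 FPKM over the 8 libraries. Its level (ENSG00000138166, hg38 chromosome 10, 110497838 to 110511544, plus strand) was 0.432, 0.311, 0.290 and 0.478 FPKM in the controls and 2.06, 1.25, 1.54 and 1.33 FPKM in the DNMT3A libraries. Each DNMT3A library was above each control, with 60 to 94 reads against 12 to 22. Mean FPKM was 4.09-fold higher, the largest ratio among the members with over 10 reads in every library (two-sided exact permutation p = 0.0286, n = 4 per group). With no filter at all, where 2.66% of 30436 genes rose, its limma adjusted p was 0.00818 at a log2 fold change of 0.88.

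DUSP4, the nuclear phosphatase for ERK, JNK and p38, was barely detected. It had 3, 4, 0 and 1 reads in control libraries 1 to 4 and 3, 6, 9 and 6 reads in DNMT3A libraries 1 to 4, or at most 0.0713 FPKM. A count of 0 in control library 3 allows up to 3 reads, or 0.0261 FPKM, for counting error only. The groups overlapped (two-sided exact permutation p = 0.0857, n = 4 per group), and a difference was not detectable at this depth.

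Among the Sprouty genes SPRY4 and SPRY1 rose and SPRY2 did not pass the test. SPRY4 (ENSG00000187678, hg38 chromosome 5, 142310427 to 142326455, minus strand), which restrains RAS activation by receptors, stood at 4.10, 4.16, 4.42 and 4.74 FPKM in the controls and at 8.91, 8.46, 7.90 and 7.44 FPKM in the DNMT3A libraries. All 4 DNMT3A libraries were above all controls, with means of 4.36 ± 0.292 and 8.18 ± 0.641 FPKM (SD, n = 4). The log2 fold change was 0.78 with an SE of 0.07 (limma adjusted p = 0.00013). Inside the SPRY4 gene the table lists short RNAs RF02038 and RF02039 on the other strand, with 6 and 1 reads in the controls and 27 and 18 in the DNMT3A libraries. SPRY4-AS1, which overlaps its start on the plus strand, had 78 and 49 reads. Without strand these reads and those of SPRY4 cannot be told apart, and all of them are few beside the 429 to 1021 reads of SPRY4 per library.

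SPRY1, a Sprouty protein of the same upstream step, was higher than SPRY4 in every library. SPRY1 (ENSG00000164056, hg38 chromosome 4, 123396795 to 123403760, plus strand) stood at 7.45, 10.0, 9.60 and 8.04 FPKM in the controls and at 15.0, 13.6, 14.6 and 12.5 FPKM in the DNMT3A libraries. The groups did not overlap, with a log2 fold change of 0.62 and an SE of 0.09 (limma adjusted p = 0.00251).

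SPRY2 (ENSG00000136158, hg38 chromosome 13, 80335976 to 80340951, minus strand), the best studied Sprouty protein, stood at 4.05, 3.86, 4.26 and 4.34 FPKM in the controls and at 3.96, 3.86, 3.92 and 3.80 FPKM in the DNMT3A libraries. Its groups overlapped, and the log2 fold change was -0.07 with a 95% interval of -0.19 to 0.05 (limma adjusted p = 0.405). SPRY2 lies on chromosome 13, where 66 of 198 other tested genes fell, 9 rose and the median log2 fold change was -0.15. Relative to its chromosome's median, the log2 fold change of SPRY2 was 0.09 (limma adjusted p = 0.288). The part of the chromosome in its level was not tested further. Medians of the other members' chromosomes ran from -0.04 (chromosome 4, SPRY1) to 0.02 (chromosome 15, SPRED1).

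Control levels of SPRY2 and SPRY4 were close, at 4.13 ± 0.215 and 4.36 ± 0.292 FPKM (SD, n = 4), and in the DNMT3A libraries SPRY4 stood well above SPRY2. The log2 fold change of SPRY2 was below that of SPRY4 by -0.85 (SE 0.05), and that of SPRY1 was above that of SPRY2 by 0.69 (SE 0.11). Each pair reached a two-sided exact permutation p = 0.0286, the smallest possible, and a Benjamini-Hochberg value of 0.0667 over the 7 pairs compared within families. With 4 libraries a group and 7 pairs, a value under 0.05 would have needed 5 pairs at the smallest p. SPRY1 and SPRY4 differed from each other in log2 fold change by -0.16 (SE 0.11; exact permutation p = 0.229, adjusted 0.267). Among the phosphatases DUSP6 exceeded DUSP10 by 0.52 (SE 0.17; exact permutation p = 0.0286, adjusted 0.0667), while DUSP1 and DUSP10 differed by 0.06 (SE 0.07; exact permutation p = 0.457). DUSP1 was below DUSP6 by -0.45 (SE 0.18; exact permutation p = 0.0571, adjusted 0.1). DUSP10 passed the filter only through the DNMT3A libraries, so both comparisons with it are descriptions, though they count among the 7 pairs. Both comparisons with DUSP10 also depended on the scale. With a pseudocount of 0.1, tried after seeing the data, DUSP6 exceeded DUSP10 by 0.25 (SE 0.25; exact permutation p = 0.314), and DUSP1 turned to lie below DUSP10, by -0.28 (SE 0.12; exact permutation p = 0.0857, adjusted 0.15). As TPM these differences were 0.37 and -0.14. None of the 7 differences between members passed after adjustment on any of the 3 scales.

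The SPRED genes, whose products bring neurofibromin to RAS, did not pass the test. SPRED2 (ENSG00000198369, hg38 chromosome 2, 65310851 to 65432637, minus strand) had the highest mean of the 10 members. It stood at 20.8, 18.1, 20.6 and 21.7 FPKM in the controls and at 23.6, 22.1, 23.1 and 22.6 FPKM in the DNMT3A libraries. These groups did not overlap, as was so in the higher direction for 12.1% of all tested genes. The difference was small, at a log2 fold change of 0.16 with a 95% interval of 0.03 to 0.30 (limma adjusted p = 0.0909). It passed the threshold after rescaling to TPM (log2 0.24, limma adjusted p = 0.0278), with array weights (0.0347) and with voom on recovered reads (0.0446).

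SPRED1 (ENSG00000166068, hg38 chromosome 15, 38252326 to 38357249, plus strand) stood at 3.72, 4.06, 3.57 and 3.89 FPKM in the controls and at 4.07, 2.84, 3.94 and 4.14 FPKM in the DNMT3A libraries. DNMT3A library 2 was the lowest of all 8. DNMT3A libraries 1 and 4 lay slightly above every control, and library 3 within their range. The log2 fold change was -0.03 with a 95% interval of -0.24 to 0.19 (limma adjusted p = 0.864), and 0.07 without that library (0.424). The log2 fold changes of SPRED1 and SPRED2 differed by -0.19 (SE 0.12; exact permutation p = 0.114, adjusted 0.16).

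**Figure D2:**
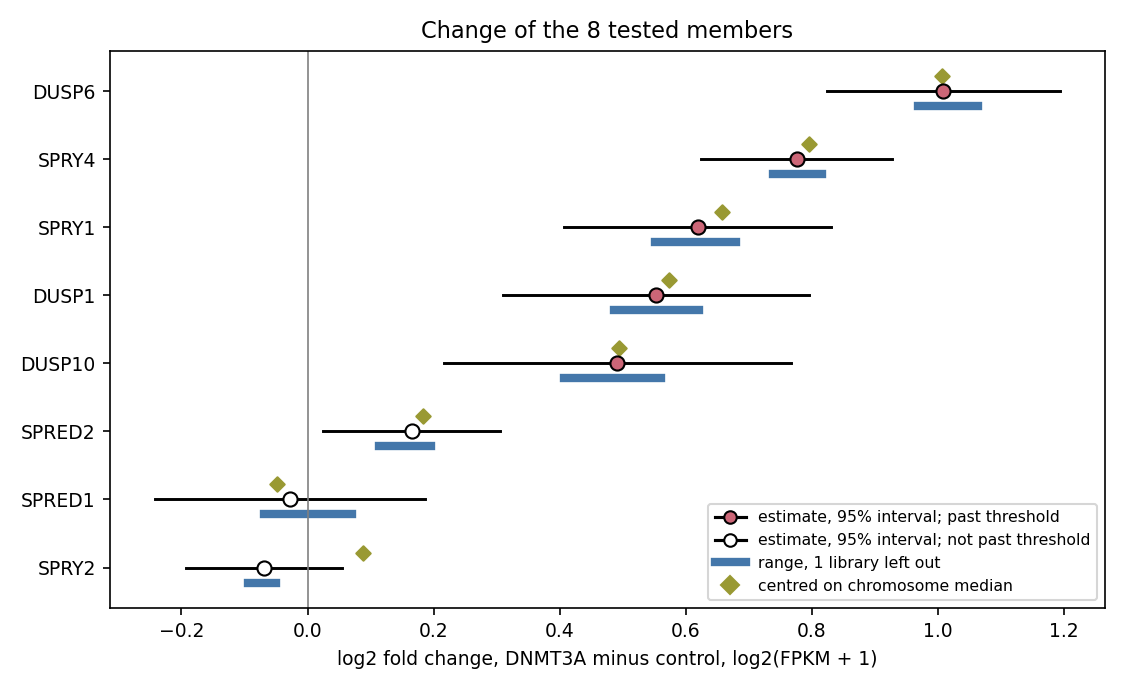
Log2 fold change of the 8 tested members (horizontal axis, DNMT3A minus control, as log2(FPKM + 1)) with its 95% interval (black), the range when each library is left out in turn (blue bars) and the value after centring on the median of the member's chromosome (diamonds). DUSP6 at 1.01 lies farthest from 0, 5 members are past the threshold, and the diamond of SPRY2 lies on the other side of 0 from its estimate.

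Members were not equally abundant. Mean FPKM in the controls ran from SPRED2 (20.3 ± 1.56) over DUSP1 (14.9 ± 2.03), SPRY1 (8.78 ± 1.23), DUSP6 (6.18 ± 0.654), SPRY4 (4.36 ± 0.292), SPRY2 (4.13 ± 0.215), SPRED1 (3.81 ± 0.209), DUSP10 (0.787 ± 0.160) and DUSP5 (0.378 ± 0.0916) to DUSP4. Libraries of SPRY4 and SPRY2, and of SPRY2 and SPRED1, overlapped there. In the DNMT3A libraries those of SPRED2 (22.8 ± 0.627) and DUSP1 (22.4 ± 2.80) overlapped, as did those of SPRY1 (14.0 ± 1.13) and DUSP6 (13.4 ± 1.18), SPRY2 (3.89 ± 0.0694) and SPRED1 (3.75 ± 0.608), and DUSP5 (1.54 ± 0.364) and DUSP10 (1.53 ± 0.387). SPRY4 (8.18 ± 0.641) overlapped neither neighbour. Summed over the 10 members the level was 60.5 to 67.5 FPKM in the controls and 87.8 to 96.9 FPKM in the DNMT3A libraries.

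DUSP9, an ERK phosphatase outside the 10 members, carried most phosphatase RNA of this kind in HepG2 and fell. It stood at 173, 145, 152 and 139 FPKM in control libraries 1 to 4 and at 117, 110, 111 and 108 FPKM in DNMT3A libraries 1 to 4. The groups did not overlap, with a log2 fold change of -0.44 and an SE of 0.07 (limma adjusted p = 0.00345). Its share of the summed FPKM of the 10 MAP kinase phosphatases (DUSP1, DUSP2, DUSP4, DUSP5, DUSP6, DUSP7, DUSP8, DUSP9, DUSP10 and DUSP16) was 73.3% to 77.5% in the controls and 62.4% to 63.8% in the DNMT3A libraries. The sum itself was 190 to 223 FPKM in the controls and 169 to 185 FPKM in the DNMT3A libraries. The 5 DUSP members together stood at 20.1 to 24.8 FPKM in the controls and 36.7 to 41.3 FPKM in the DNMT3A libraries. In FPKM the sum over these phosphatases was lower in every DNMT3A library (two-sided exact permutation p = 0.0286, n = 4 per group). No test of this sum was planned beforehand. DUSP9 makes up most of the sum, so this result is not independent of the fall of DUSP9. Rescaled to TPM, a comparison added after seeing the data, the groups overlapped, at 569 to 697 in the controls and 529 to 590 in the DNMT3A libraries (exact permutation p = 0.229). DNMT3A library 1 then stood above 3 of the 4 controls. The 5 members' part was higher in every DNMT3A library on both scales.

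**Figure D3:**
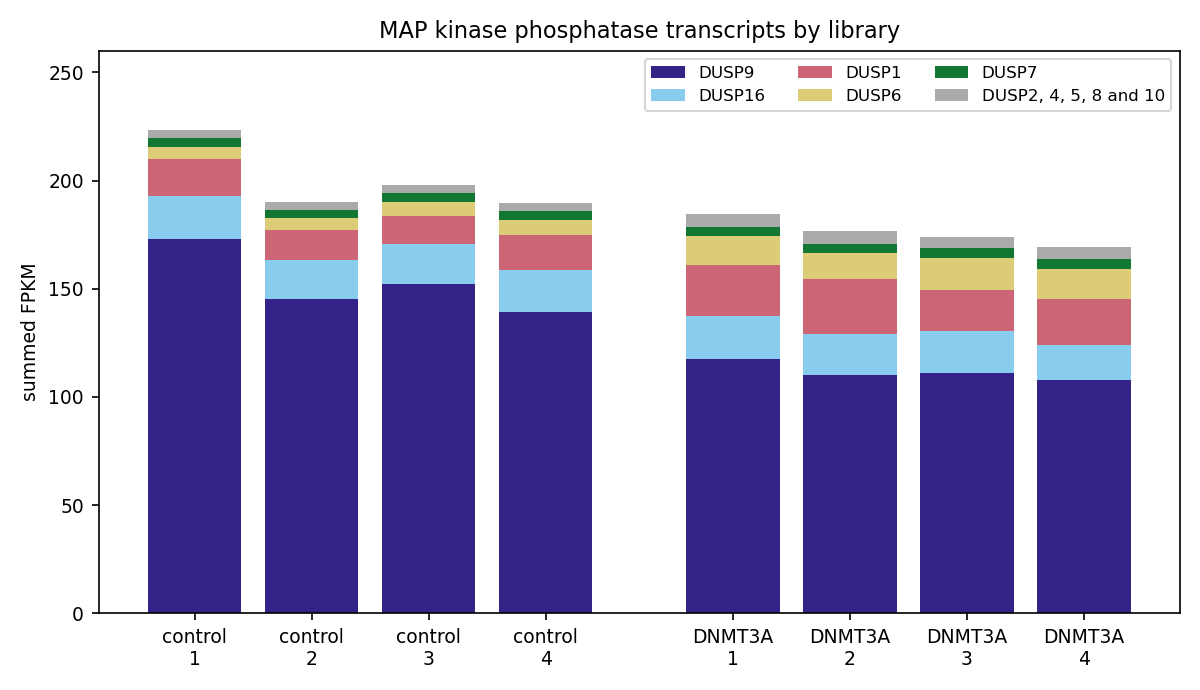
Summed FPKM of 10 MAP kinase phosphatase genes (vertical axis, from 0) in each library, stacked by gene. DUSP9 makes up 73.3% to 77.5% of the bar in controls and 62.4% to 63.8% in DNMT3A libraries, and the DUSP1 and DUSP6 segments are taller in the DNMT3A libraries.

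Of 12 tested genes among the other dual-specificity phosphatases DUSP3 rose, DUSP9 fell and 10 did not pass, at a median log2 fold change of -0.06. Called in either direction were 16.7% of this list, beside 20.6% of all tested genes. DUSP3, an atypical phosphatase that acts on ERK and JNK, rose from 19.9 ± 0.868 to 22.8 ± 1.03 FPKM (SD, n = 4; log2 0.19, limma adjusted p = 0.0388). Leaving out any library other than DNMT3A 4 ended the call of DUSP3 (limma adjusted p = 0.0546 to 0.105), as did the replicate number as a block (0.0961). The JNK and p38 phosphatase DUSP16 (19.0 ± 0.861 and 18.7 ± 1.52 FPKM; SD, n = 4) and the RNA phosphatase DUSP11 (9.90 ± 0.415 and 9.58 ± 0.733 FPKM) did not pass. SPRY3 and SPRED3, the remaining relatives of the members, stayed under the filter at 0.0476 and 0.0273 FPKM in the controls.

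Other brakes on RAS and ERK included 4 genes that rose and 0 that fell among 17 tested (median log2 fold change 0.01). Called in either direction were 23.5% of this list, beside 20.6% of all tested genes, of which 9.93% rose. ERRFI1, an inhibitor of the EGF receptor kinase, rose from 64.0 ± 6.19 to 106 ± 9.93 FPKM (SD, n = 4; log2 0.72, limma adjusted p = 0.000903). LRIG1 (log2 0.57), a membrane protein that restrains receptors of the EGF family, its relative LRIG3 (log2 0.52) and the ubiquitin ligase CBL (log2 0.29) also rose. Leaving out control 2, control 3 or DNMT3A 1 ended the call of CBL (limma adjusted p = 0.0622 to 0.0704). The adaptor DOK4 (log2 0.12) and the phosphatase PTPN1 (log2 0.01) did not pass. DOK4 passed after rescaling to TPM (0.0375) and with array weights (0.0239). NF1, named for its role as partner of the SPRED proteins after its value was seen, stood at 3.68 ± 0.241 and 3.71 ± 0.187 FPKM (SD, n = 4) and did not pass.

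Of all tested genes 20.6% passed in either direction, against which the kinases and receptors above these brakes can be read. Of 21 tested genes from RAS to ERK 0 rose and 2 fell (median log2 fold change -0.04), and over the alternatives 0 to 3 rose and 0 to 4 fell. The RAS relative MRAS (log2 -0.29, limma adjusted p = 0.046) and the adaptor YWHAB (log2 -0.22, 0.0151) fell, while the RAF inhibitor PEBP1 (log2 -0.11) and the ERK-activated kinase RPS6KA3 (log2 -0.09) did not pass. The call of MRAS ended on leaving out any library but control 1 and DNMT3A 2 (limma adjusted p = 0.0572 to 0.123) and in the block fit (0.0592). That of YWHAB ended on leaving out control 3 (0.0552), under quantile normalization (0.121) and TPM (0.0545) and in the block fit (0.0507). Of 19 tested receptors and adaptors 2 rose and 1 fell, with a median of 0.14. Over the alternatives 2 to 8 of these rose, with 7 as TPM and 8 with array weights or voom, and 0 to 1 fell. EGFR, the EGF receptor, rose from 3.49 ± 0.162 to 4.73 ± 0.515 FPKM (SD, n = 4; log2 0.35, limma adjusted p = 0.00971), and the adaptor CRKL rose by a log2 of 0.25. FGFR4, the main FGF receptor of hepatocytes, fell by 0.34 on the log2 scale from 86.0 ± 4.10 to 67.9 ± 6.29 FPKM (limma adjusted p = 0.0112, and 0.0566 after rescaling to TPM). FGFR3 (log2 0.03) and the adaptor GRB2 (log2 0.07) did not pass.

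Of 30 listed ligands of these receptors only 5 were tested and 25 were not. IGF2 was left out because its symbol belongs to several gene entries, and its level was not examined. The other untested ligands stayed under the filter. KITLG, the ligand of KIT, rose (log2 0.24) and PDGFC, a ligand of PDGF receptors, fell (log2 -0.28). The tested EGF receptor ligands AREG (log2 0.20) and TGFA (log2 0.08) did not pass. HBEGF and EREG, EGF receptor ligands under the filter, were named after their values were seen. HBEGF had 41 reads in the controls and 106 in the DNMT3A libraries, and EREG had 53 and 10. The call of KITLG ended on leaving out any library but DNMT3A 2 and DNMT3A 3 (limma adjusted p = 0.0526 to 0.0692), and that of PDGFC on leaving out any but DNMT3A 1 (0.0521 to 0.0874). Both also ended in the block fit (0.0643 and 0.0586).

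Other transcripts known to be induced by ERK held 10 genes that rose and 1 that fell among 26 tested (median log2 fold change 0.16), beside 9.93% of all tested genes higher. The transcription factors FOS (log2 0.79, limma adjusted p = 0.00852), EGR1 (log2 0.75, 0.00471) and FOSL2 (log2 0.74, 0.000581) and the RNA-destabilising protein ZFP36 (log2 0.77, 0.00911) rose most. The fall was that of PHLDA1 (log2 -0.33, limma adjusted p = 0.0199), named after its value was seen. Leaving out control 3, DNMT3A 1 or DNMT3A 3 ended the call of PHLDA1 (limma adjusted p = 0.0519 to 0.0621). The cell cycle gene CCND1 (log2 -0.12) did not pass, and neither did the ETS factors ETV4 (log2 -0.20) and ETV5 (log2 0.04), named after their values were seen because they often move with DUSP6 and SPRY4 when ERK activity changes. With array weights CCND1 passed, in the same direction (limma adjusted p = 0.027). Thus some known ERK-induced transcripts rose beside the members and others did not pass the test or fell.

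Of 25 tested genes of the JNK and p38 cascades, on which DUSP1 and DUSP10 act, 3 rose and 2 fell (median log2 fold change 0.05). Called in either direction were 20% of this list, near the 20.6% of all tested genes. The scaffold MAPK8IP3 (log2 0.34) and the kinase MAP3K3 (log2 0.33) rose, as did the adaptor TAB3 (log2 0.22), named after its value was seen. The p38-activated kinase MAPKAPK2 (log2 -0.28) and the p38 isoform MAPK13 (log2 -0.22) fell. MAP2K3 (log2 0.10) and ATF2 (log2 0.15) did not pass. Of these calls that of MAPKAPK2 held without each library in turn. The call of MAPK8IP3 ended on leaving out any library but control 2, control 4 and DNMT3A 1 (limma adjusted p = 0.0509 to 0.0756). That of MAP3K3 ended on leaving out control 2, control 3, DNMT3A 1 or DNMT3A 3 (0.0596 to 0.0804). TAB3 kept its call only without control 4 or DNMT3A 2 (otherwise 0.0622 to 0.0881), and MAPK13 only without control 2 or DNMT3A 2 (otherwise 0.0657 to 0.0877). In the block fit TAB3 (0.0674) and MAPK13 (0.0887) were not called. ATF2 passed without DNMT3A library 2 (0.0371).

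**Figure D4:**
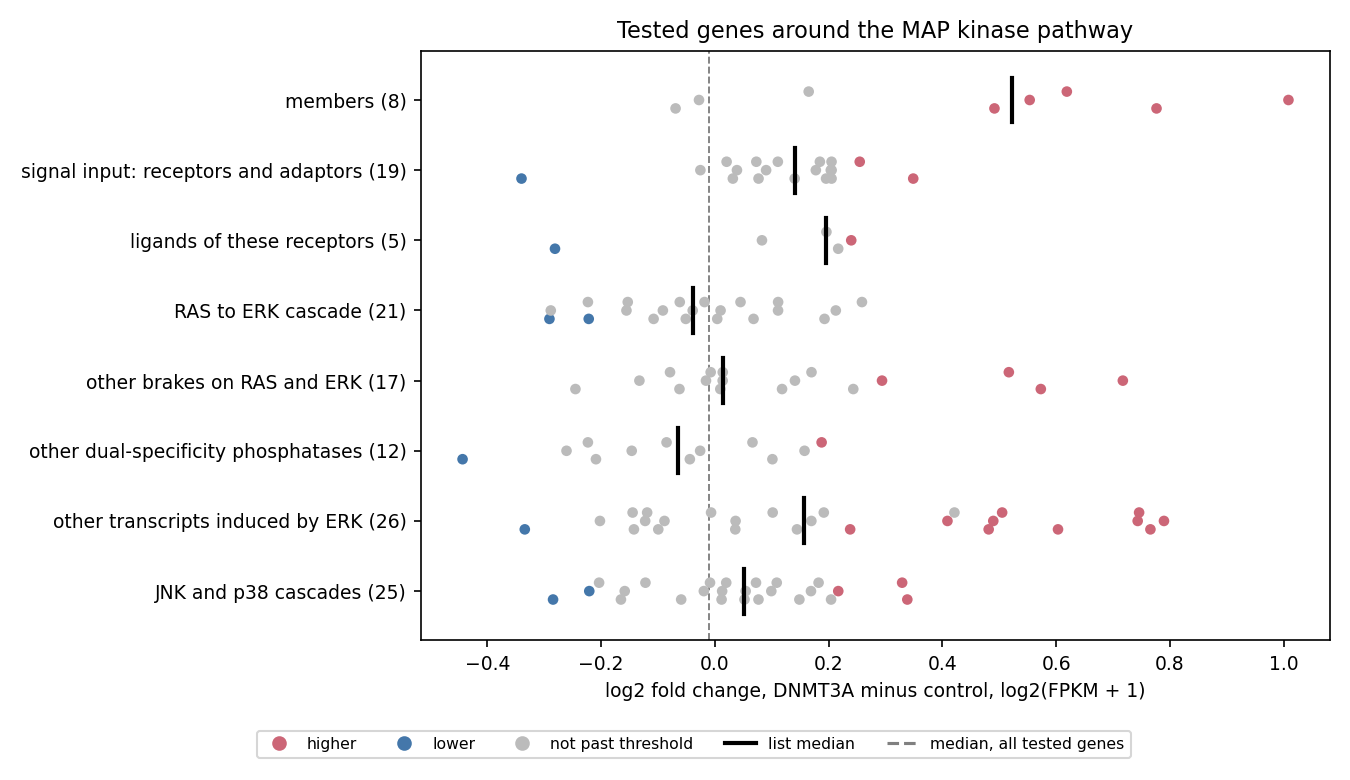
Log2 fold change of each tested gene (points; horizontal axis, DNMT3A minus control, as log2(FPKM + 1)) in the 8 gene lists, with the number tested in brackets, the median of each list (black bar) and the median of all tested genes (dashed line, -0.01). Red points passed the threshold upward and blue points downward. The median of the 8 tested members, DUSP10 included, is drawn at 0.52.

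Beyond these lists, the genes whose profiles over the 8 libraries were most like that of DUSP6 were EFCAB7, CCDC117 and BCL6, with Pearson r of 0.997, 0.995 and 0.993 among 9904 protein-coding genes. For SPRY4 they were TOX4, TNFRSF10B and FREM1, with r of 0.996, 0.992 and 0.991. All 8 points share libraries and depth, and such values mostly reflect the step between groups. EFCAB7 was low, at 0.848 ± 0.0444 FPKM in controls and 1.33 ± 0.0741 FPKM in the DNMT3A libraries (SD, n = 4). It passed the filter only through the DNMT3A libraries. BCL6, a transcriptional repressor, went from 5.54 ± 0.358 FPKM in controls to 9.84 ± 0.630 FPKM (SD, n = 4). TNFRSF10B, a death receptor, stood at 28.1 ± 2.08 and 44.7 ± 1.60 FPKM. Within groups the members moved less uniformly. The correlation of deviations from the group means over 8 libraries was 0.83 between DUSP1 and DUSP10 and 0.27 between DUSP6 and SPRY4. It was -0.59 between DUSP1 and SPRY1.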

How the data were processed

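RNA of 8 HepG2 libraries (4 control, 4 DNMT3A, by sample title) was captured on poly-T beads and primed with random hexamers, per the labels' protocols. HISAT2 2.0.5 and hg38 were used by the authors, per the submitters' processing notes, and no source used here names the counting program. The authors deposited FPKM values, per the file headers, at coordinates equal to those of GENCODE release 29 for 58735 genes. Reads were recovered from gene length times FPKM, which came out whole for 100% of values (tolerance 0.01 read). FPKM divides by a factor for each library, which was not equal to the recovered read total. It was 18310774 against 17626137 reads in DNMT3A library 2, and 15928304 against 15938744 reads in control library 1. No source used here says how that factor was set. How far large changes in abundant genes shift the others is therefore not known.

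Genes averaging at least 1 FPKM were tested on log2(FPKM + 1) with limma 3.58.1 in R 4.3.3 (intensity trend), with Benjamini-Hochberg adjustment at a threshold of 0.05. Single values were tested by two-sided exact permutation over 70 assignments. For this comparison a simulation altered 200 of the 11620 genes, at levels above those of DUSP10. Limma found 1.5% of them at a log2 change of 0.3, 76% at 0.5 and 97% at 1. In the libraries 2389 genes were called, so the adjusted threshold was less strict there than in the simulation. These percentages therefore cannot give the share of small changes detected here. Some changes of 0.3 or less were called and others were not, and how many were missed was not tested. Members, gene lists and tests were chosen with earlier results of these data known, and the 7 pairwise differences within families were added after values were seen. Named genes are the members, DNMT3A, from each list up to 4 called genes by size of change and up to 2 uncalled genes by mean, and the 3 genes most like DUSP6 and SPRY4; exceptions are stated, and 1 gene that the rule selects is not reported here. Alternatives were a pseudocount of 0.1, a filter of 0.5 FPKM or none, median-ratio, quantile and TPM scaling, limma without the trend, with array weights or with replicate numbers as a block, voom, protein-coding genes only, centring on chromosome medians, and leaving out single libraries. Promoter windows are from RefSeq (GRCh38.p14). Limits of a count of 0 cover counting error only, since no molecular identifiers are recorded.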

Additional observations from a re-analysis of the deposited data

Results flagged for a closer look

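Each group of 4 libraries was searched for a highest or lowest library set apart from the other 3, with a gap beyond Dixon's 95% critical value for 4 samples. Of 102 groups 9 were flagged, and chance flags about 1 in 20. One was a member: SPRED1 was at 2.84 FPKM in DNMT3A library 2 against 3.94 to 4.14 FPKM in the other 3 DNMT3A libraries. That library was also the lowest for ERRFI1 (91.0 FPKM, against 110.7 to 111.3 FPKM), for the adaptor CRKL (35.8 FPKM, against 40.3 to 41.1 FPKM) and for ETV5 (10.2 FPKM, against 12.3 to 12.4 FPKM). TGFA was lowest in DNMT3A library 3, at 4.25 FPKM against 4.48 to 4.52 FPKM, and PHLDA1 highest in DNMT3A library 4, at 21.4 FPKM against 19.7 to 19.8 FPKM. Among the controls FGFR3 was highest in library 1 (42.1 FPKM, against 38.1 to 38.8 FPKM), DUSP11 was highest in library 4 (10.5 FPKM, against 9.64 to 9.74 FPKM) and MAP3K3 was lowest in library 2 (3.39 FPKM, against 4.10 to 4.19 FPKM).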

How the results depend on the processing

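DUSP1, DUSP6, SPRY1 and SPRY4 were called higher under all 20 alternatives each, with limma adjusted p of at most 0.0354, 0.00136, 0.0149 and 0.00214. Between 4 and 6 members were called higher and 0 lower. DUSP10 lost its call without a filter (log2 0.49), reached 0.96 with voom, 0.86 with a pseudocount of 0.1 and 0.78 as TPM, and ran from 0.41 to 0.56 with 1 library left out. DUSP5, untested at first, was called without a filter and with one of 0.5 FPKM, which it passed through its DNMT3A libraries (log2 0.88 in both), and its log2 difference was 1.78 with a pseudocount of 0.1 and 1.46 as TPM. That of DUSP4 became 0.33 and 0.13. SPRED2 passed as TPM (log2 0.24), with array weights (0.17) and with voom (0.19). SPRED1 turned positive as TPM (0.033) and with array weights (0.033), ranging from -0.069 to 0.070 with 1 library left out, and SPRY2 with chromosome centring (0.088). Over all genes, higher and lower calls were 1825 and 1931 with array weights. Lower calls were 786 without a filter and 716 as TPM, which raises the median log2 fold change of all genes to 0.06. With 1 library left out they ran from 769 (control library 3) to 1195 higher and from 739 (control library 3) to 1248 lower, with 768 lower without control library 2. The cause of these shifts was not tested.

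Over 39 other genes selected for description and 20 alternatives, 684 of 780 values kept call and direction, 81 lost the call, 5 gained one and 10 changed sign. DUSP1 minus DUSP10 changed sign with a pseudocount of 0.1 (-0.28) and as TPM (-0.14), both added after seeing the data. Calls higher and lower ranged from 3 to 6 and 0 to 1 for other brakes, 0 to 2 and 1 to 4 for other dual-specificity phosphatases, 7 to 11 and 0 to 3 for transcripts induced by ERK, 0 to 5 and 1 to 4 for JNK and p38 genes, and 0 to 2 and 0 to 1 for ligands. Signs of uncalled genes turned for PTPN1 with array weights (-0.059), DUSP11 as TPM (0.024), and DUSP16 with quantile normalization (0.011), as TPM (0.045) and with array weights (0.023). With 1 library left out FGFR3 ran from -0.00078 to 0.063, PTPN1 from -0.020 to 0.058, DUSP16 from -0.058 to 0.029 and ETV5 from -0.022 to 0.099. Same-numbered libraries were not treated as paired in the main fit. Their deviations correlated at 0.16, -0.08, -0.02 and 0.10, and control library 1 correlated best with DNMT3A library 2 (0.20). Such values cannot show whether the libraries were made in pairs. With the replicate block 913 genes were higher and 968 lower, and the same count of 5 members was higher.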
